A study of Mus musculus with 4 samples.

Results

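The fetal natural killer (NK) and innate lymphoid cells of the mouse liver were 73 cell barcodes out of 15893 kept in the 2 fetal libraries, and out of 27874 kept in the series. A barcode was a member when it carried at least 1 unique molecular identifier (UMI, 1 counted transcript molecule) for 3 or more of 8 genes, Ncr1, Klrb1c, Klrd1, Nkg7, Il2rb, Klrk1, Gzma and Xcl1, and no UMI of the B cell gene Cd79a. Barcodes under 300 genes or over 25% mitochondrial UMIs had been dropped. The rule gave 31 cells in the library of fetuses from control mothers (fetal Ctrl) and 42 cells in that of fetuses from mothers with high blood glucose in pregnancy (fetal IHG, intrauterine hyperglycemia).

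Single-cell libraries were made with 10x Genomics 3′ chemistry from livers of male offspring, at E18.5, late in gestation, for the fetal groups and at 8 weeks for the adult offspring of both kinds of mother. Each library pooled the material of 3 pregnant mice or 3 adults, so animals cannot be told apart within it. All livers were digested with the same enzyme mixture and treated to lyse red cells, and the adult livers were perfused first. The labels give no strain or diet and do not say how hyperglycemia was produced. With 1 library per group no difference has a replicate check and no p-value was computed. Intervals are exact 95% intervals that cover counting error only, not differences between cells, litters, dissociations or captures.

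NK cells are lymphocytes of the innate immune system that kill target cells with granules of perforin and granzymes and release interferon gamma and chemokines. They read activating receptors such as NKp46 (Ncr1) and NK1.1 (Klrb1c) against inhibitory receptors for MHC class I. Among these are CD94 (Klrd1) paired with NKG2A (Klrc1) and some, but not all, members of the Ly49 family (Klra genes). The liver also holds a related resident lymphocyte, the group 1 innate lymphoid cell (ILC1), which like NK cells uses the transcription factor T-bet (Tbx21) but does not depend on Eomes. The fetal liver is a site of blood formation, so its suspensions are dominated by red cell, myeloid and B cell precursors.

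Library totals differed. The kept fetal barcodes had a median of 7496 UMIs in Ctrl and 9833.5 in IHG, and haemoglobin made up 35.0% and 20% of kept UMIs. The member cells had a median of 5415 UMIs in Ctrl (lowest 2465, highest 21271) and 10488.5 in IHG (566 to 31040), and gave 221910 and 461674 UMIs in all. Of the barcode sequences, 19 occurred in both fetal libraries, and no member was among them. Scrublet called 0 of 31 and 2 of 42 members doublets.

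In each library 5 members were outside limits on haemoglobin (10% of UMIs), neutrophil RNA (2 of S100a8, Ltf and Camp at 5 or more UMIs) and macrophage RNA (2 of the 3 C1q genes), or were called doublets. In Ctrl 4 cells were over the haemoglobin limit and 1 over the neutrophil limit, and together these cells held 29.7% of the member UMIs. In IHG 1 cell was over the haemoglobin limit, 3 over the neutrophil limit and 1 over the macrophage limit, and 2 were called doublets, with overlap, and the 5 cells held 11.6% of the member UMIs. The main comparisons of the 2 libraries are therefore also given for the remaining 26 Ctrl and 37 IHG cells, the 63 cells within the limits. These still hold RNA of other cells. An IHG member with 3 of the 8 rule genes and 1 Gzma UMI passed the limits with 117 neutrophil-list UMIs. Among them were 39 of Prtn3 and 28 of Mpo, both genes of early neutrophils. The cell also held 13 UMIs of F13a1 and 10 of Ms4a6c, which are in the macrophage and monocyte list. It is called the Mpo-rich member here. Without it 26 Ctrl and 36 IHG cells remained. Both sets were chosen after the data had been seen.

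Members were 0.403% of kept barcodes in fetal Ctrl (interval 0.274 to 0.571%) and 0.513% in fetal IHG (0.370 to 0.692%). The log2 ratio of the shares was 0.35 (-0.36 to 1.07), so the counts did not separate the 2 libraries.

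The 8 rule genes chose the cells, and their values are a description. Gzma, encoding granzyme A, was found in all 73 cells, with 3575 and 10927 UMIs, or 16110 and 23668 CPM (UMIs of a gene scaled to a common total of member UMIs), against 9.38 and 8.89 CPM in the rest of each library. Nkg7, a granule membrane protein, was found in 28 of 31 and 41 of 42 cells. Il2rb, the interleukin-2 and interleukin-15 receptor beta chain, was found in 29 and 37 cells, Klrd1 in 27 and 42, and the activating receptor Klrk1 (NKG2D) in 22 and 32. Klrb1c was found in 19 and 37 cells, Ncr1 in 15 and 29, and the chemokine Xcl1 in 26 and 26.

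Most members lay far from the threshold of 3 genes. In Ctrl 4 cells had 6 of the 8 genes, 15 had 7 and 5 had all 8, and in IHG the counts were 10, 11 and 16. Exactly 3 genes were found in 3 Ctrl and 2 IHG cells, whose median Gzma was 6 and 4.5 UMIs and none of which had Cd3g. Just outside, 18 Ctrl and 79 IHG barcodes had 2 of the genes, with a median Gzma of 0.5 and 1 UMI and a median of 7 and 11 of 17 neutrophil genes. Another 6 barcodes in each library passed the gene count and were left out for Cd79a (1 to 15 UMIs in Ctrl, 1 to 21 in IHG).

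Other genes of cytotoxic lymphocytes, outside the rule, were found in most members. Gzmb, encoding granzyme B, was found in 30 of 31 Ctrl and 40 of 42 IHG cells (532 and 1301 UMIs), and in 0.23% and 0.64% of B-lineage barcodes of the same libraries. Those B-lineage barcodes, with at least 3 UMIs of Cd79a (2209 in Ctrl, 1099 in IHG, median 4186 and 4633 UMIs), are the reference for free RNA here. The chemokine gene Ccl5 was found in 29 and 38 members, against 0.86% and 0.91% of B-lineage barcodes. Ctsw, a protease of cytotoxic granules, was found in 28 and 40 cells, and Klrc1 in 24 and 37. The signalling adaptors Tyrobp (29 and 42 cells) and Fcer1g (30 and 41) were nearly universal, but these are myeloid genes too and were found in 12.7 to 27.7% of B-lineage barcodes. Cd160, an activating receptor of NK cells and ILC1, was found in 16 and 32 cells.

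Perforin was sparse beside the granzymes. Prf1 was found in 5 of 31 Ctrl and 17 of 42 IHG cells, with 7 and 31 UMIs. After each cell was thinned to 2000 UMIs, to remove the depth difference, 2 of 31 and 8 of 41 cells kept a Prf1 UMI, while Gzmb was kept in 26 and 34. One IHG member had too few UMIs to thin.

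**Figure D1:**
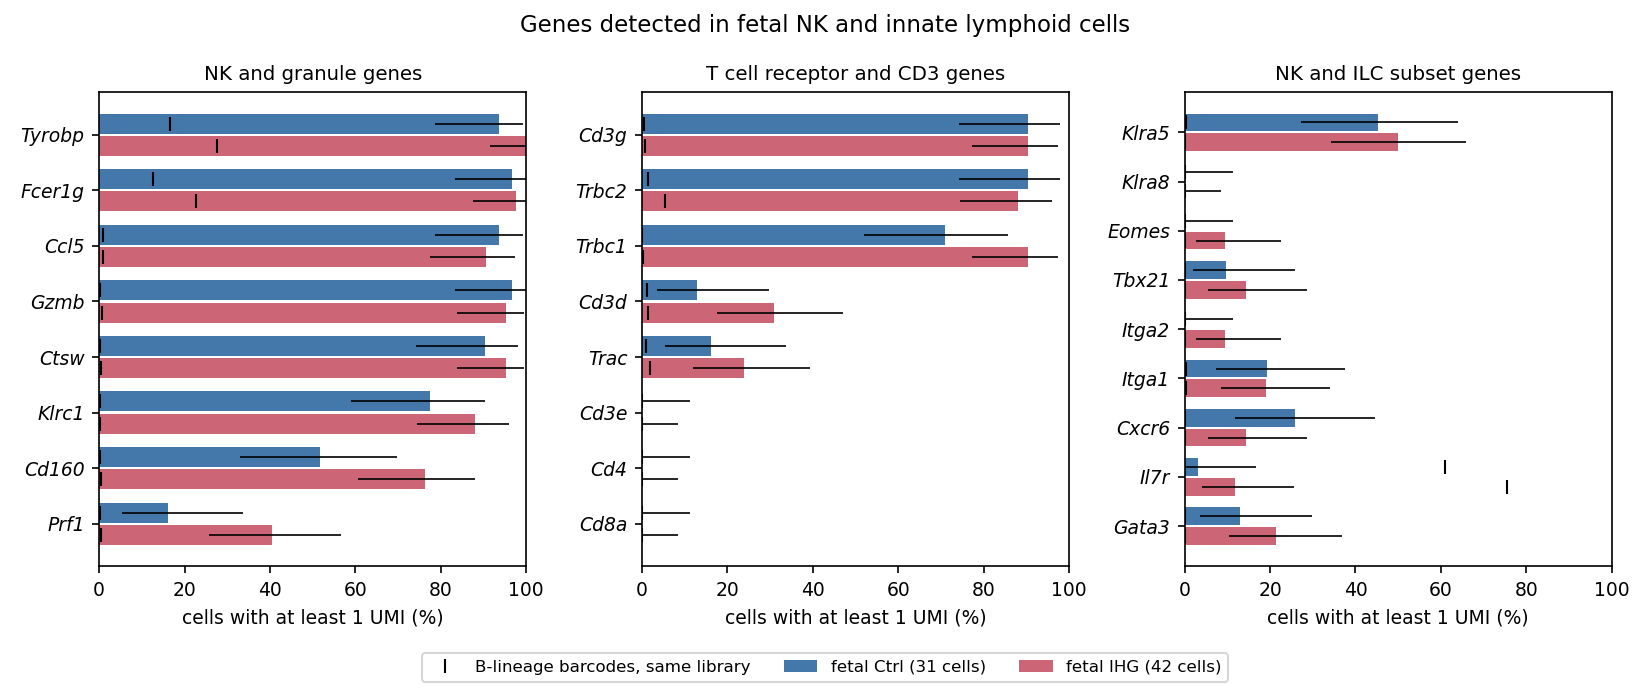
Share of fetal NK and innate lymphoid cells with at least 1 UMI of each gene (x axis, percent), for 31 fetal Ctrl cells (blue) and 42 fetal IHG cells (red), at full depth. Black lines are exact 95% binomial intervals and short ticks give the share of B-lineage barcodes. Cd3g and both T cell receptor beta constant genes were found in most cells while Cd3e, Cd4 and Cd8a were found in none.

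The members carried some T cell receptor complex transcripts and lacked others. Cd3g, the CD3 gamma chain (chromosome 9, 44969572 to 44980431, mm10, GENCODE M21), was found in 28 of 31 Ctrl and 38 of 42 IHG cells, with 179 and 409 UMIs, against 0.45% and 0.64% of B-lineage barcodes. The T cell receptor beta constant genes Trbc2 (28 and 37 cells) and Trbc1 (22 and 38) were as widespread, and 26 Ctrl and 35 IHG cells held both Cd3g and Trbc2. Trbc1 and Trbc2 are near-identical copies, so the split between them is uncertain. Cd3d was found in 4 and 13 cells and Trac, the alpha constant gene, in 5 and 10.

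Cd3e, the CD3 epsilon chain that every surface T cell receptor needs, was found in 0 of the 73 cells. This allows a share of up to about 4.11% of cells with a UMI, taken as 3 divided by 73 and not as an exact interval. Cd4 and Cd8a were also at 0. The gene can be counted with this chemistry, since Cd3e was found in 1084 adult Ctrl and 1026 adult IHG barcodes. In all of the fetal barcodes it was found in 3 in Ctrl and 1 in IHG. Members held 179 of the 238 Cd3g UMIs of the fetal Ctrl library and 409 of the 458 of fetal IHG. Every one of the 44 members with Ncr1 also had Cd3g, and 22 further members had Cd3g without Ncr1.

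Genes that separate NK cells from ILC1 were mostly low. Eomes, the transcription factor of conventional NK cells, was found in 0 of 31 Ctrl and 4 of 42 IHG cells, Itga2 (CD49b) in 0 and 4, and S1pr5, a receptor for exit from tissue, in none. Tbx21 was found in 3 and 6 cells. On the ILC1 side Itga1 (CD49a) was found in 6 and 8 cells, the chemokine receptor Cxcr6 in 8 and 6, and Il7r in 1 and 5. Only 1 cell held both Eomes and Itga2. At least 2 genes of the conventional NK list of 17 were found in 31 of 31 and 40 of 42 members, and of the ILC1 list of 14 in 24 of 31 and 32 of 42. The NK list holds Ccl5 (29 and 38 cells) and Gzmb (30 and 40 cells), which carried most of its count. In B-lineage barcodes the same test was met by 27.6% and 36.5% for the NK list and by 26.3% and 45.3% for the ILC1 list, so neither list assigns single cells here.

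Il22 and Il17a, cytokines of ILC3, and Il1rl1 and Il5, a receptor and a cytokine of ILC2, had 0 UMIs in the members. Gata3, a factor shared by ILC2 and T cells, was found in 4 Ctrl and 9 IHG cells. At least 2 of the 13 genes of the ILC2 list were found in 4 of 31 Ctrl cells (12.9%) and 9 of 42 IHG cells (21.4%), against 2.04% and 2.82% of B-lineage barcodes, and the highest IHG cell had 6. The ILC2 list also holds Gata3, Hes1 and Icos, which other lymphocytes express. At least 2 genes of the ILC3 list were found in 0 of 31 Ctrl and 9 of 42 IHG cells (7.55% of IHG B-lineage barcodes), carried by Tmem176a and Tmem176b, which myeloid cells also express (17 and 15 IHG UMIs). After thinning to 2000 UMIs no member had 2 genes of that list, and 0 Ctrl and 2 IHG cells had 2 of the ILC2 list.

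Among the Ly49 receptors 1 gene stood apart. Klra5 (chromosome 6, 129898996 to 129917650, minus strand) was found in 14 of 31 Ctrl and 21 of 42 IHG cells, with 94 and 211 UMIs, and the members held nearly all of the Klra5 UMIs of the 2 libraries (108 and 226 in all). Klra4, Klra8 and Klra9 had 0 UMIs in both fetal libraries, over all barcodes. Klra7 was in 1 Ctrl cell and Klra3 in 1 Ctrl and 2 IHG cells. Klra genes are close paralogs, and reads shared between copies could have been lost or assigned to the wrong one.

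Adult barcodes were set beside the fetal ones with a gate that used neither granzymes nor CD3 gamma: at least 1 UMI of Ncr1 and none of Cd3e or Cd79a. It took 15 and 30 barcodes of the fetal Ctrl and IHG libraries and 149 and 227 of the adult ones, with median depths of 8071, 11247.5, 2640 and 2823 UMIs, and the shares below are after thinning to 2000 UMIs (15, 29, 116 and 174 barcodes). The gate needs an Ncr1 UMI, which a deeper barcode shows more easily. Adults are compared with fetuses across separate libraries, and only adult livers were perfused, so age and library cannot be told apart.

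Cd3g was found in 66.7% and 89.7% of the fetal Ctrl and IHG barcodes and in 35.3% and 26.4% of the adult ones. Klra5 was found in 46.7% and 51.7% against 6.9% and 6.9%. Klra8 and Klra9 had the opposite order. Klra9 was found in 0 of the fetal barcodes and in 18.1% and 20.1% of adult ones, and Klra8 in 15.5% and 14.9% of adult ones. Gzma was found in every fetal barcode and in 69.0% and 73% of adult barcodes, at 20654 and 25537 CPM against 5608 and 6844. Stmn1, a tubulin regulator of dividing cells, was found in 66.7% and 65.5% against 6.9% and 1.7%.

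The receptor gene Klrk1 was found in 13.3% and 31% of fetal and 56.0% and 55.2% of adult barcodes. Tbx21 was found in no thinned fetal barcode and in 21.6% and 22.4% of adult ones, and Eomes in 0% and 3.4% against 12.1% and 9.2%. Ccl5 differed in level more than in detection, at 7020 and 7621 CPM in the fetal and 17787 and 19028 CPM in the adult sets.

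**Figure D2:**
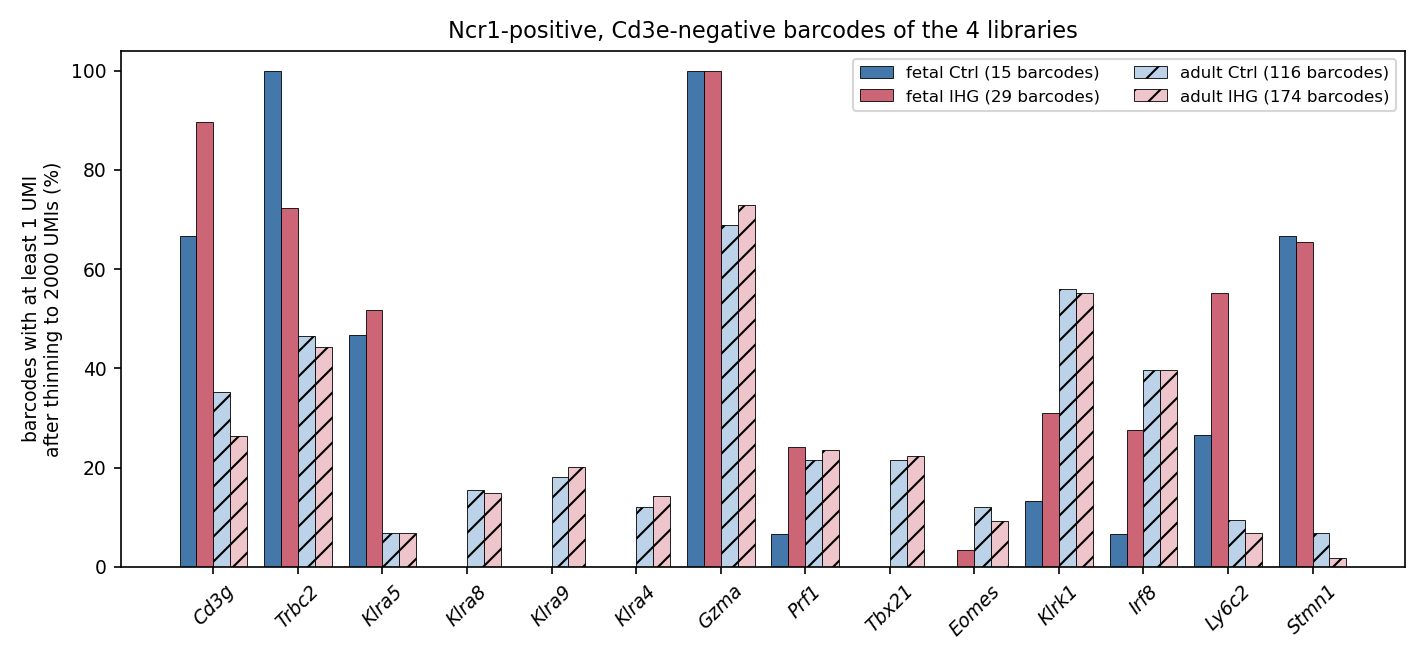
Share of Ncr1-positive, Cd3e-negative barcodes with at least 1 UMI of each gene after thinning to 2000 UMIs (y axis, percent), for fetal (plain bars) and adult (hatched bars) libraries from control (blue) and IHG (red) offspring. Klra5, Cd3g and Stmn1 are higher in both fetal libraries, and Klra8, Klra9 and Tbx21 appear in the adult libraries only among the thinned barcodes shown.

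Between the fetal libraries the effector cytokines and chemokines were lower in IHG. Ccl4, encoding the chemokine MIP-1 beta (chromosome 11, 83662584 to 83664683), had 1378 and 185 UMIs in the 2 libraries, or 6210 CPM (5886 to 6546) and 401 CPM (345 to 463), a log2 ratio of -3.95 (-4.18 to -3.73). The top Ctrl cell held 25% of the Ctrl UMIs, and without the top cell of each library the ratio was -3.73. Per cell the median was 13.6 UMIs of Ccl4 per 10000 in Ctrl (0 to 541) and 1.54 in IHG (0 to 26.2). The groups overlapped at the low end, where 9 Ctrl and 17 IHG cells had no Ccl4, and 13 of the 31 Ctrl cells lay above the highest IHG cell.

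Ifng, encoding interferon gamma, had 240 UMIs in 24 Ctrl cells and 91 UMIs in 15 IHG cells, a log2 ratio of -2.45 (-2.82 to -2.10). One IHG cell held 46.2% of the IHG UMIs, and the ratio without the top cells was -3.03. Xcl1, a chemokine for cross-presenting dendritic cells, had 445 and 200 UMIs (-2.21, -2.46 to -1.97), and Ccl3, or MIP-1 alpha, 120 and 64 (-1.96, -2.42 to -1.51). Tnf had 22 UMIs in 8 Ctrl cells and 1 UMI in 1 IHG cell (-4.96, -10.88 to -2.89). Cxcl10, an interferon-induced chemokine, had 202 UMIs in 10 cells and 49 in 8, but 47.5% and 53.1% of these came from 1 cell in each, and the ratio of -3.09 was -1.63 in the 63 cells.

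Ccl5 did not follow them. It had 1717 and 3785 UMIs, or 7737 and 8198 CPM, a log2 ratio of 0.08. Of the 9 cytokine and chemokine genes with at least 20 UMIs over both libraries, 7 were at least 2-fold lower in IHG and Ccl5 alone was higher. The 7 include Xcl1, a rule gene that helped choose the cells, and its ratio is also the list's median over all members. Over all 3319 genes with that count, 4.76% were at least 2-fold lower in IHG and 13.1% at least 2-fold higher, 17.9% in all. Scaling the libraries by the median ratio of all genes moves every ratio by -0.35, turns the split from 435 higher and 158 lower genes to 205 and 272, and leaves the cytokine median below 0. The list's median log2 ratio was -2.21, against 0.32 for all 3319 genes, and -1.62 over 8 genes in the 63 cells (-1.75 without the Mpo-rich member of that set).

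**Figure D3:**
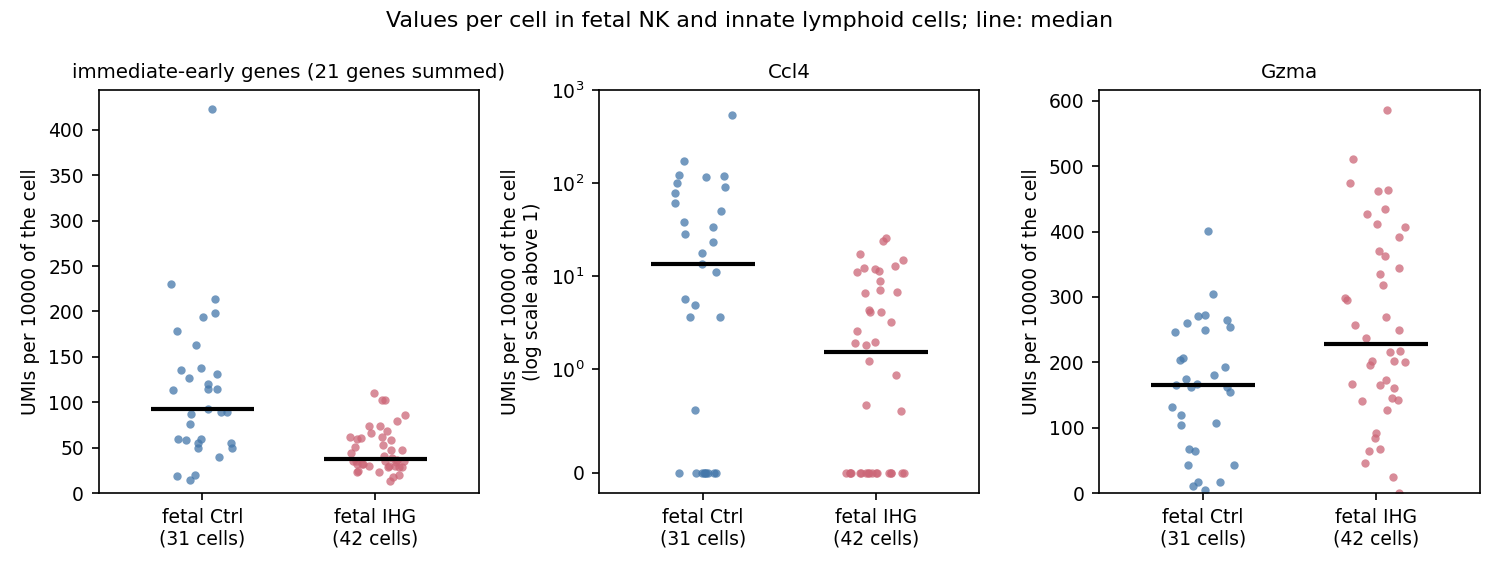
UMIs per 10000 of the cell's UMIs (y axis) for the 21 immediate-early genes summed, Ccl4 (log scale above 1) and Gzma, with 1 point per cell and the median as a line, in 31 fetal Ctrl and 42 fetal IHG cells. The immediate-early medians are 92.2 and 37.6, the Ccl4 medians 13.6 and 1.54 and the Gzma medians 166 and 227, and all 3 measures overlap between the libraries.

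Immediate-early genes, which cells switch on within minutes of a stimulus or of handling, were lower in IHG as well. Fos, an AP-1 transcription factor subunit, gave 207 Ctrl and 44 IHG UMIs (a ratio of -3.28, interval -3.79 to -2.82), and Egr1, a zinc finger factor, 51 and 14 (-2.89, -3.89 to -2.05). Zfp36, which destabilises cytokine messenger RNAs, had 76 and 21 UMIs (-2.89), and the phosphatase gene Dusp1 had 171 and 61 (-2.54). Jun had 83 and 33 UMIs (-2.37) and the nuclear receptor gene Nr4a1 had 88 and 72 (-1.34). The 2 most abundant members, Junb and Jund, differed less, at -0.70 and -0.51. Nr4a2 was higher in IHG, with 16 UMIs in 11 control cells and 78 in 28 IHG cells (1.19, 0.44 to 2.10).

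Of 17 immediate-early genes with at least 20 UMIs, 11 were at least 2-fold lower and 1 at least 2-fold higher in IHG, with a median of -1.35. The summed list was found at a median of 92.2 UMIs per 10000 in Ctrl cells (14.8 to 423) and 37.6 in IHG cells (13.6 to 110). Here 15 of 31 Ctrl cells lay above the highest IHG cell, and 3 of 42 IHG cells lay above the Ctrl median. In the 63 cells the median log2 ratio was -1.57 (-1.53 without the Mpo-rich member), and 11 of 17 genes were at least 2-fold lower there, against 4.89% of 2964 genes (10.5% were at least 2-fold higher).

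Targets of NF-kB, a transcription factor of immune activation, were lower too. Nfkbid had 45 and 17 UMIs (-2.44), Icam1, an adhesion molecule, 54 and 29 (-1.94), Tnfaip3, an NF-kB inhibitor, 57 and 38 (-1.64) and Nfkbia, which holds NF-kB in the cytoplasm, 303 and 253 (-1.32). Of 11 genes with enough counts 7 were at least 2-fold lower, against 4.76% of all genes, with a median of -1.44. In the 63 cells the count was 8 of 11, against 4.89% of all genes, with a median of -1.67 (-1.61 without the Mpo-rich member). Birc3, an apoptosis inhibitor, was the 1 gene of the list that was higher (0.82). Cd69, an early activation receptor that also retains lymphocytes in tissue, had 236 UMIs in 28 of 31 Ctrl cells and 76 in 14 of 42 IHG cells (-2.69, -3.08 to -2.31).

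Immediate-early genes were also lower in the B-lineage barcodes of the fetal IHG library. In the B-lineage barcodes the immediate-early median was -0.99 and 10 of 21 genes were at least 2-fold lower, against 2.8% of the 11796 genes tested there (5.09% were at least 2-fold higher). Fosb was at -2.48 in B-lineage barcodes and -2.61 in the members, and Egr1 at -1.67 and -2.89. For the rest of each library, values are given for Fos, Zfp36 and Egr1 only and not for the whole list. Over all kept barcodes other than members, Fos was at 64.4 CPM in Ctrl and 118 in IHG. Zfp36 was at 41.9 and 57.8 CPM there and Egr1 at 31.7 and 49.4. These are the immediate-early genes among the 10 lowest member ratios, and all were higher in IHG there. That set pools many cell types, and haemoglobin made up 35.0% of kept UMIs in Ctrl and 20% in IHG. The part of the cell mix in these values was not tested. The NF-kB list had a median of -0.45 in B-lineage barcodes, with 4 of 16 genes at least 2-fold lower and 1 at least 2-fold higher. The cytokine list had -0.04 there, on low levels, with 3 of 11 genes at least 2-fold lower and 0 at least 2-fold higher. The shares of all genes there were again 2.8% lower and 5.09% higher. Ccl4 was at 52.4 and 51.1 CPM in these barcodes and Ifng at 36 and 3 UMIs in all. Differences between the members and the B-lineage barcodes were not tested, and the part of dissociation or capture in these values was not tested.

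In adult barcodes picked by the same 8 genes, with no UMI of Cd3e, Cd3d or Cd3g (429 in Ctrl, 528 in IHG), the 3 lists lay near 0. The immediate-early median was -0.07, the cytokine and chemokine median 0.07 and the NF-kB median -0.10, against -0.03 for all 7021 genes, of which 4.07% were at least 2-fold lower in adult IHG, 1.99% at least 2-fold higher and 6.07% either. Adult Ccl4 was 10434 CPM in Ctrl and 11852 in IHG, and Ifng 1568 and 1469 CPM. The fetal members beside them had no CD3 filter, and 28 Ctrl and 38 IHG members had Cd3g. The adult filter would leave 2 Ctrl and 4 IHG fetal cells, so the fetal and adult sets are not alike in this trait. The fetal and adult ratios come from separate pairs of libraries and their difference was not tested.

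**Figure D4:**
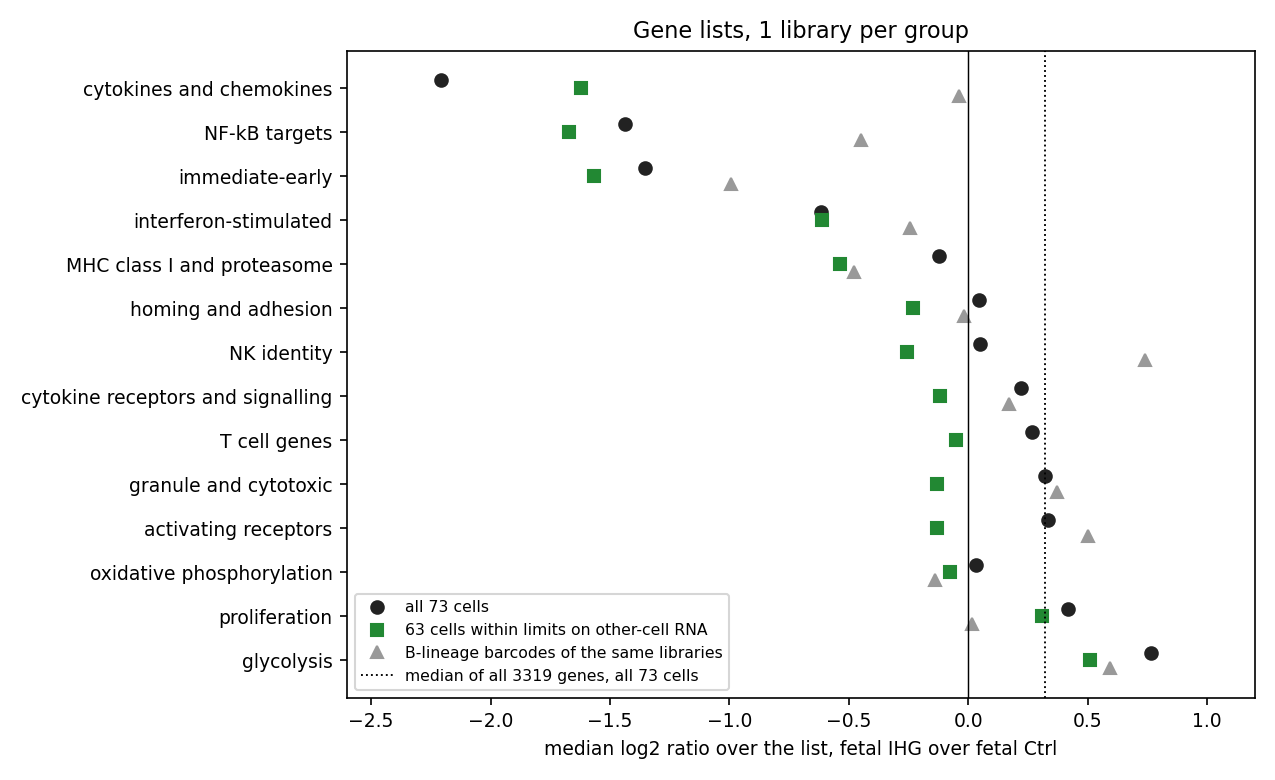
Median log2 ratio of fetal IHG over fetal Ctrl (x axis) over the genes of each list with at least 20 UMIs, for all 73 NK and innate lymphoid cells (circles), the 63 within the limits on haemoglobin, neutrophil, macrophage and doublet signs (squares) and the B-lineage barcodes (triangles). The dotted line is the median of all 3319 genes, 0.32. Cytokine, NF-kB and immediate-early lists lie below -1.3 in both sets of NK and innate lymphoid cells.

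Of 15 granule and cytotoxicity genes with enough counts, 2 were at least 2-fold higher and 2 at least 2-fold lower in IHG, against 13.1% and 4.76% of all genes. The list's median was 0.32, equal to that of all genes, and -0.13 in the 63 cells, where that of all genes was 0.15, and -0.03 under median-of-ratios scaling. The rule genes Gzma and Nkg7 are in this list. Gzmb had a log2 ratio of 0.23 (0.09 to 0.38) in all cells and -0.17 in the 63 cells. Serpinb9, the inhibitor that shields killer cells from granzyme B, had 41 UMIs in 18 Ctrl cells and 267 in 38 IHG cells (1.63, 1.17 to 2.16), and 1.21 in the 63 cells. Gzmc, a granzyme of activated killer cells and ILC1, had 110 UMIs in 12 Ctrl cells and 20 in 14 IHG cells (-3.49, -4.28 to -2.82). One Ctrl cell held 33.6% of the Gzmc UMIs, and the adult sets also differed, at 271 and 63.9 CPM.

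Of all 3319 genes 70.6% had a ratio above 0. Of 17 activating receptors and adaptors with enough counts 11 were higher and 6 lower in IHG (median 0.33, and -0.13 in the 63 cells and -0.02 under median-of-ratios scaling). This list holds the rule genes Ncr1, Klrb1c and Klrk1, and its median of 0.33 is the Ncr1 ratio. Of 18 NK identity genes 10 were higher and 8 lower (0.05, and -0.26 in the 63 cells and -0.30 under that scaling). Ncr1 had a log2 ratio of 0.33 (-0.24 to 0.96), Klrb1c 0.49 (0.02 to 1.00) and Klrk1 0.06 (-0.43 to 0.58), and Il2rb was at -0.45 (-0.84 to -0.06). Cd3g was at 0.13 (-0.12 to 0.40) and Klra5 at 0.11 (-0.25 to 0.48), both with intervals that include 0. Cd7, a surface protein of NK and T cells, had 155 and 183 UMIs (-0.82, -1.13 to -0.50).

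Cytokine receptors and their signalling genes had 10 of 18 genes higher and a median of 0.22, which was -0.13 under median-of-ratios scaling. Ifngr1, a chain of the interferon gamma receptor, had 61 and 238 UMIs (0.90, 0.50 to 1.34), and the survival gene Bcl2 had 23 and 87 (0.84, 0.19 to 1.59). Cish, a feedback inhibitor induced by interleukin-15, had 25 and 16 (-1.68, -2.70 to -0.74), and Socs1, another such inhibitor, had 28 and 29 (-1.01, -1.81 to -0.20).

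Of 12 lymphoid transcription factors with enough counts 3 were at least 2-fold lower in IHG and 1 at least 2-fold higher, against 4.76% and 13.1% of all genes. Id2, which NK cells and ILCs need for their development, had 93 and 67 UMIs (-1.53, -2.01 to -1.06), Klf2, a factor of quiescence and recirculation, 211 and 176 (-1.32, -1.62 to -1.02), and Maf 15 and 14 (-1.15). In B-lineage barcodes Klf2 was at 574 and 159 CPM. It was the 1 of 17 factors at least 2-fold lower there, and 2 were at least 2-fold higher, against 2.8% and 5.09% of all genes. Irf8, which acts in NK cell and myeloid development, had 13 UMIs in 8 Ctrl cells and 111 in 28 IHG cells (1.99, and 1.61 in the 63 cells). Irf8 is also a gene of plasmacytoid dendritic cells. Their list of 9 genes summed to 117 and 399 CPM, mostly Irf8 and Bst2, with 6 and 2 genes at 0, and the defining gene Siglech was at 0 in both.

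Glycolysis genes were higher in IHG without exception among the 12 with enough counts, with a median of 0.77, and 3 of them at least 2-fold higher, against 13.1% of all genes. In the 63 cells all 10 genes with enough counts were higher, but 0 were at least 2-fold higher, against 10.5% of all genes. Without the Mpo-rich member 1 of 10 was at least 2-fold higher. Gapdh had 332 and 1111 UMIs (0.68, 0.51 to 0.87), Ldha, lactate dehydrogenase A, 88 and 315 (0.78, 0.44 to 1.14) and Pkm, pyruvate kinase, 29 and 130 (1.09, 0.52 to 1.74). The list was at 0.51 in the 63 cells, where the median of all genes was 0.15, and at 0.59 in B-lineage barcodes, where it was 0.23, and stayed above 0 under median-of-ratios scaling, at 0.41. Oxidative phosphorylation genes had a median of 0.03 over 32 genes, and -0.32 under median-of-ratios scaling. MHC class I and immunoproteasome genes had -0.12 over 12 genes, with B2m, the light chain of MHC class I, at -0.76, and the list was at -0.54 in the 63 cells. Of 13 interferon-stimulated genes 5 were higher and 8 lower (-0.61), with Isg15 at 595 and 227 CPM (-1.39), where 1 cell gave 44.8% of the IHG UMIs.

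**Figure D5:**
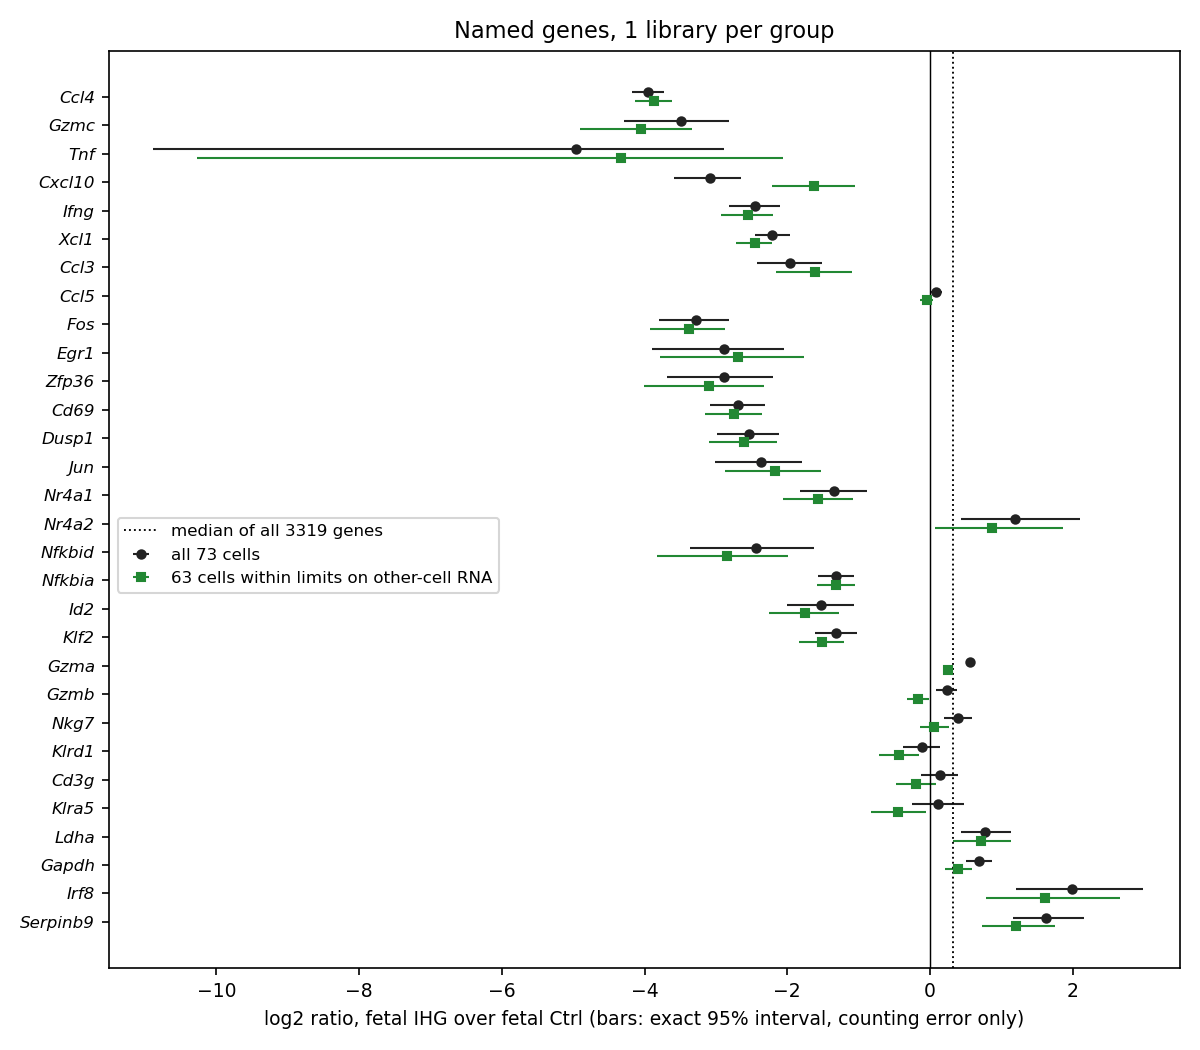
Log2 ratio of fetal IHG over fetal Ctrl (x axis) for 30 named genes in all 73 NK and innate lymphoid cells (black circles) and in the 63 within the limits on haemoglobin, neutrophil, macrophage and doublet signs (green squares). Bars are exact 95% intervals for counting error only and the dotted line is the median of all genes, 0.32. Ccl4, Ifng, Fos and Cd69 lie below -2 in both sets, while Gzma, Nkg7, Cd3g and Klra5 lie between -0.5 and 0.6.

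Many of the members were in the cell cycle by their transcripts. Mki67 or Top2a, genes of dividing cells, was found in 18 of 31 Ctrl cells (58.1%) and 25 of 42 IHG cells (59.5%). After thinning to 2000 UMIs the counts were 9 of 31 and 18 of 41, or 29.0% (14.2 to 48.0%) and 43.9% (28.5 to 60.3%). The same genes were found in 57.1% and 47.1% of B-lineage barcodes at full depth. Dividing cells were the deeper ones, with a median of 8179.5 UMIs against 3673 in Ctrl, and 14154 against 5435 in IHG. Of the 25 proliferation genes 21 were higher and 4 lower in IHG, with a median of 0.42, near that of all genes.

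Within each library the cells with Mki67 or Top2a had less Ccl5, at 5246 CPM against 15790 in Ctrl and 4424 against 20850 in IHG. Tyrobp was also lower in them, at 1593 against 3127 CPM in Ctrl and 1485 against 3007 in IHG. Gzma differed less, at 14799 against 20348 CPM in Ctrl and 22040 against 29126 in IHG. These groups of cells were defined from the same data and each comes from 1 library, so the values are a description.

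Clustering of the 73 cells gave 3 clusters, described here without a test because the cells were clustered on the same genes. The largest held 34 cells (10 Ctrl, 24 IHG) and led with dividing-cell genes such as Hist1h1b and Tuba1b and with neutrophil genes such as S100a9. The S100a9 value rests largely on 1 IHG member called a doublet, which held 77.8% of the IHG member UMIs of that gene. The next held 30 cells (13 Ctrl, 17 IHG) and led with granule and NK genes such as Gzmc, Ccl5 and Tyrobp. The smallest held 9 cells, 8 of them Ctrl, and led with Cxcl10, Ifng and Ccl4, with 14521 CPM of Ccl4 against 1171 and 1434 in the other clusters.

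Among the genes with the lowest ratios were Ccl4, Gzmc, Fos, Gadd45g, Cxcl10, Cd24a, Mgst3, Zfp36 and Egr1. Cd24a had 42 and 11 UMIs (-2.94) and Mgst3 41 and 11 (-2.91), and 35.7% and 39.0% of their Ctrl UMIs came from 1 cell. Across the processing alternatives Cd24a ranged from -3.29 to -1.19 and Mgst3 from -3.26 to -0.96. Both were higher in the rest of the Ctrl library, at 1077 and 660 CPM, than in the Ctrl members, at 189 and 185 CPM. Haemoglobin was 11.1% of Ctrl member UMIs and 0.673% of those of IHG, or 1.21% and 0.632% in the 63 cells. Gadd45g, a stress-induced gene, had 48 and 10 UMIs (-3.26, -4.47 to -2.32).

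The 10 highest ratios were led by neutrophil genes. Csta2, Stfa2, Stfa2l1, Ngp, Prtn3, Retnlg, S100a9, Cstdc5 and Cstdc4 had ratios of 2.22 to 3.19, and 76.4 to 86.6% of the IHG UMIs of each came from 1 cell. The Csta, Stfa and Cstdc genes are close paralogs, and how reads were split among them is uncertain. For all of these but Prtn3 it was the cell with the highest neutrophil content, 1854 neutrophil-list UMIs per 10000 against medians of 14.9 in Ctrl and 16.9 in IHG, which was called a doublet. Without doublets Prtn3 was at 2.75, S100a9 at 0.27, Ngp at 0.87, Cstdc5 at 0.35 and Retnlg at -0.17. Prtn3 came from the Mpo-rich member. In the 63 cells Prtn3 had 3 and 45 UMIs (2.31) and Mpo 0 and 33, with 86.7% and 84.8% of the IHG UMIs in that cell, and without it they had 6 and 5 IHG UMIs. Plac8, the other gene of the 10, had 7 UMIs in 7 Ctrl cells and 107 in 18 IHG cells (2.78), and 60.7% of the IHG UMIs came from 1 cell. In the 63 cells Plac8 was at 2.85, with 63.1% of 103 IHG UMIs from the Mpo-rich member, and at 1.48 without it. Other genes with high ratios in the 63 cells were Gsto1 (4 and 52 UMIs, 2.16), Hnrnpd, an RNA-binding protein (21 and 203, 1.86), and Hmgn1, a chromatin protein (7 and 69, 1.83).

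The 13 basophil and mast cell genes summed to 4.51 CPM in Ctrl and 23.8 in IHG, with 12 and 10 of them at 0, and the 15 macrophage and monocyte genes summed to 243 and 507 CPM, mostly Ly6c2 and Ccr2, with 13 and 3 at 0. The neutrophil list summed to 1600 and 6697 CPM. The part of neutrophil RNA in the comparison of the libraries was not tested.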

How the data were processed

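The deposited matrices hold UMI counts for each gene in each barcode; per the file headers the software was Cell Ranger 5.0.0. The submitters' processing notes list mm10 as the build, and Seurat beside Cell Ranger without saying what Seurat did. Other steps are not given in the sources used here.

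Counts were used as deposited. Barcodes under 300 genes or over 25% mitochondrial UMIs were dropped, and members were picked by the 8-gene rule. No cell annotation was used. Doublets were scored with Scrublet in scanpy 1.11.5 and left in, except in the named alternatives. UMIs were summed per library over members and scaled to CPM by the library's member total. The log2 ratio of IHG over Ctrl used 0.5 added to each count, for genes with 20 or more UMIs over both libraries. CPM intervals are exact Poisson, shares Clopper-Pearson and ratios exact conditional Poisson, at 95%. PCR duplicates are removed by UMIs, and each interval covers counting error only. Thinned values kept 2000 random UMIs per cell. Members were clustered with Leiden (leidenalg 0.10.2). Positions come from GENCODE M21. Simulated counts were used to test the ratio and list code.

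Named genes are the 8 rule genes, up to 8 members of each list by summed UMIs, 13 subset genes at any level, and the 10 highest and 10 lowest ratios among genes with 50 or more UMIs, 100 CPM in 1 library and UMIs in 10 cells, without mitochondrial, ribosomal, haemoglobin, immunoglobulin, Y-linked genes and Xist. Fosb, Jun, Nr4a2, Tnf, Birc3, Cish, Maf, Mki67, Tmem176a, Tmem176b, the other genes named at 0 or in single cells, the leading cluster genes and Mpo, Gsto1, Hnrnpd and Hmgn1 were chosen after their values were seen. The members, lists and comparisons were chosen with earlier results of these data known. Some lists also hold rule genes, so part of their values comes from genes that chose the cells. Xcl1 is in the cytokine and chemokine list, and Gzma and Nkg7 are in the granule list. Ncr1, Klrb1c and Klrk1 are in the activating receptor list, Klrd1 in the inhibitory receptor list and Il2rb in the cytokine receptor list. Some genes that the rule names are not reported here.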

Additional observations from a re-analysis of the deposited data

Results flagged for a closer look

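Of the named genes, 2 had ratios beyond 2-fold in opposite directions at the 2 ages, each with an interval that excludes 0. S100a9, a calcium-binding protein of neutrophils, had a log2 ratio of IHG over Ctrl of 2.43 in the fetal NK and innate lymphoid cells and -2.11 in adult barcodes picked by the same genes without CD3 chains. Retnlg, another neutrophil gene, had 2.64 and -2.25. The difference between the ages was not tested, since there is 1 library per group. In fetal IHG 1 cell, called a doublet, held 77.8% of the S100a9 and 86.6% of the Retnlg UMIs. Without doublets the fetal ratios were 0.27 for S100a9 and -0.17 for Retnlg, so neither was beyond 2-fold. The adult ratios also rest on few barcodes. Adult Retnlg had 70 UMIs in 0.699% of Ctrl barcodes and 17 UMIs in 1.14% of IHG barcodes. Adult S100a9 had 194 UMIs in 6.76% and 53 UMIs in 3.98%.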

How the results depend on the processing

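Across the alternatives the cytokine and chemokine median stayed between -2.56 and -1.62, the immediate-early median between -1.97 and -0.78, the NF-kB median between -2.77 and -1.16 and the glycolysis median between 0.41 and 0.96. Of the main values, 399 comparisons with an alternative moved little and 47 moved, and of single-gene ratios 963 moved little, 181 moved and 4 changed sign.

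Asking for only 2 of the 8 genes brought in barcodes with little Gzma. The log2 ratio of shares was then 1.21, 85.7% and 74.4% of Ctrl and IHG members had 2 conventional NK genes, 51.0% and 37.2% had 2 ILC1 genes and 63.3% and 36.4% had 2 T cell genes. Medians were -0.78 for immediate-early, -2.46 for cytokine, -0.76 for MHC class I, -0.48 for activating receptor, -0.98 for NK identity, -0.79 for T cell and -1.10 for inhibitory receptor genes, Sh2d2a was at -0.12, and 1429 genes were higher and 378 lower by 2-fold. With 4 of 8 genes 100% of Ctrl and 100% of IHG members had 2 T cell genes, as did 100% of Ctrl members with at least 1000 genes or without haemoglobin-rich cells, where the cytokine median was -1.73.

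Without doublets Retnlg was at -0.17, and without neutrophil or macrophage RNA Retnlg was at -0.14 and Cstdc4 at -0.040. In the 63 cells the cytokine median was -1.62 and the inhibitory receptor median -0.43, and without their Mpo-rich member -1.75 and -0.38. Thinned to 2000 UMIs with the rule read again, the shares with 2 genes were 83.3% and 82.5% for conventional NK, 40% and 32.5% for ILC1, 0% and 5% for ILC2 and 0% in IHG for ILC3, the NF-kB median was -2.77 and the lymphoid factor median -0.77, and 90 genes were higher and 59 lower. Median-of-ratios scaling gave -2.56 for cytokines, -0.094 for heat shock and -0.47 for inhibitory receptors, with 205 genes higher and 272 lower. With genes of 5 or more UMIs 1377 were higher and 697 lower, and with 1 or more 2262 and 2038, both with an immediate-early median of -1.97. The cause of these shifts was not tested.

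Leaving out members with any CD3 chain UMI left 2 Ctrl and 4 IHG cells, too few for gene values. No paired analysis was possible because each group is 1 library. With 31 and 42 cells, 0 cells with a UMI allows a share of up to 9.68% and 7.14%.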
